A study of Zea mays with 4 samples.

Results

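The plastid NADH dehydrogenase-like (NDH) complex was followed in whole maize (Zea mays) seedlings through 5 genes, ndhE, ndhF, ndhG, ndhH and ndhI. They were taken as every row of the deposited count table whose ID is ndh followed by a capital letter from A to K, and they are 5 of its 22525 IDs. RefSeq, in its Zm-B73-REFERENCE-NAM-5.0 gene list, has 11 such symbols on the maize plastid genome, and all 5 matched it there; the other 6 symbols were not analysed here. The hybrid group, 2 libraries, is given in the labels as an F1 of the lines A188 and B73 and also as HiII. The other group, 2 libraries, is the inbred line B73, from which the maize reference genome was made. All seedlings came from a greenhouse (days of 14 h, nights of 10 h) and were taken at the V3 stage with both roots and shoots. Each group has a library coded RPI11 and a library coded RPI10. The labels do not say what the codes stand for, whether seedlings were pooled, or which line was the seed parent of the hybrid, from which maize plants inherit their plastids.

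The NDH complex sits in the thylakoid membrane, takes electrons from ferredoxin and returns them to plastoquinone, and so feeds cyclic electron flow around photosystem I. In C4 grasses such as maize it is known to be abundant in bundle sheath chloroplasts, where cyclic flow supplies ATP. Its stromal arm holds NdhH and NdhI, of which NdhI carries iron-sulphur clusters, and its membrane arm holds NdhE, NdhF and NdhG, of which NdhF belongs to the antiporter-like subunits. In the RefSeq order of the plastid genome, psaC is followed by ndhE, ndhG, ndhI, ndhA and ndhH, and ndhF lies on the other side of ndhD and ccsA. Neighbouring plastid genes are commonly transcribed together, so a read near a gene border can belong to a shared transcript. The protocol, a form of CEL-Seq2, captures RNA by its poly(A) tail. Plastid RNAs in general carry such tails only for a short time before decay, so the counts are of captured plastid RNA and were not set against total plastid RNA. Counts near one end of a transcript are not scaled to gene length, and levels are compared here between libraries and not between genes.

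The hybrid libraries held 883812 (RPI11) and 1341976 (RPI10) counts, and the B73 libraries held 403858 (RPI11) and 275271 (RPI10), so depth moved in the same direction as genotype; its part in the results was not tested apart from thinning the counts. Scaling by the trimmed mean of M-values (TMM) multiplied the totals by 0.778 ± 0.0235 in the hybrid and by 1.29 ± 0.0278 in B73 (SD, n = 2 each). Levels are given in CPM, the count relative to these scaled totals, unless stated. Scaling by library totals alone lowered the log2 fold changes of the hybrid over B73 by a median of -0.72. Nuclear genes of green tissue were counted in each library and moved in the same direction as the NDH genes. RBCS, for the small subunit of Rubisco, had 1676 (RPI11) and 2358 (RPI10) CPM in the hybrid and 866 and 1099 CPM in B73 (log2 fold change 1.04, SE 0.39, edgeR adjusted p = 0.0392). CAB1, for a chlorophyll a/b binding protein, had 1398 and 1909 CPM in the hybrid and 391 and 406 CPM in B73 (log2 fold change 2.05, SE 0.39, edgeR adjusted p = 0.00123). Per library total the hybrid stood only 1.21-fold (RPI11) and 1.25-fold (RPI10) above B73 for RBCS, and 2.24-fold and 2.74-fold above it for CAB1. The part of green tissue content in the results was not tested.

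The NDH genes had higher levels in the hybrid than in B73 in each code, and ndhI, ndhG and ndhF passed the test while ndhH did not. The fifth, ndhE, also passed, but with 1 and 3 counts in B73 it entered the test only through its hybrid counts, so its call is given as a description. Of all 3282 IDs tested, 25.3% were called higher in the hybrid. The sum of the 5 genes was 1097 (RPI11) and 2447 (RPI10) counts in the hybrid, against 216 (RPI11) and 253 (RPI10) counts in B73. That is 0.124% and 0.182% of the library counts in the hybrid and 0.0535% and 0.0919% in B73, without overlap between the groups. The share averaged 0.153% ± 0.0412 in the hybrid and 0.0727% ± 0.0272 in B73 (SD, n = 2 each), a ratio of 2.11 per library total, which became 3.51 on the TMM scale. Of the summed counts, ndhI alone gave 490 (RPI11) and 900 (RPI10) in the hybrid and 39 and 51 in B73. Taken singly per library total, ndhF and ndhH overlapped between the groups, and the sum without ndhI was not computed. With 2 libraries against 2, no exact permutation test of a single value can go below p = 0.333. In whole seedlings, fewer green cells and less NDH RNA per cell cannot be told apart.

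**Figure D1:**
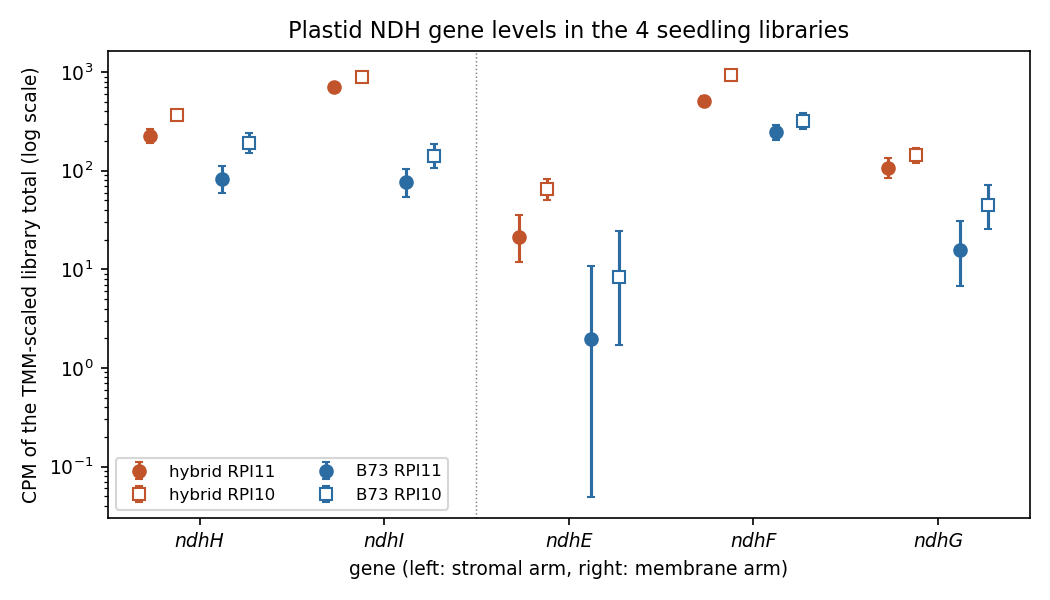
Levels of the 5 NDH genes in the 4 libraries, in CPM of the TMM-scaled library total on a log axis, with bars for the exact 95% Poisson interval of each count (counting error only). For each gene both hybrid libraries (orange) lie above both B73 libraries (blue), and in each genotype the RPI11 library (filled) lies below the RPI10 library (open).

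In the stromal arm, ndhI rose in the hybrid. It had 490 (RPI11) and 900 (RPI10) counts in the hybrid, which are 698 and 881 CPM, against 39 and 51 counts in B73, which are 76.3 and 142 CPM. The lowest hybrid library was thus far above the highest B73 library, and the groups did not overlap. By the quasi-likelihood test of edgeR its log2 fold change was 2.87 (SE 0.44, adjusted p = 0.000360), a 7.29-fold higher level. It was higher in both codes, 9.14-fold in RPI11 (95% counting interval 6.59 to 13.02) and 6.20-fold in RPI10 (4.68 to 8.40).

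The other stromal gene, ndhH, had 159 and 375 counts in the hybrid (226 and 367 CPM in RPI11 and RPI10) and 42 and 69 counts in B73 (82.1 and 192 CPM). The groups did not overlap on the TMM scale, but the RPI11 library of the hybrid was close to the RPI10 library of B73. Its log2 fold change of 1.13 (SE 0.46) did not pass the threshold (edgeR adjusted p = 0.0568). Per library total, ndhH had 180 and 279 CPM in the hybrid against 104 and 251 CPM in B73, and the groups overlapped. The call on ndhH depended on the setting: it passed with DESeq2 size factors inside edgeR (adjusted p = 0.0365) and without a filter on low counts (edgeR adjusted p = 0.0134). It had a log2 fold change of only 0.39 with library totals (edgeR adjusted p = 0.471).

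In the membrane arm, ndhE and ndhG rose in the hybrid. For ndhE the counts were 15 (RPI11) and 66 (RPI10) in the hybrid and 1 and 3 in B73, or 21.4 and 64.6 CPM against 1.96 and 8.35 CPM. Both B73 counts were at or under 3, so the ratio is poorly bounded: within RPI11 it was 10.9 (95% counting interval 1.68 to 459.6) and within RPI10 it was 7.74 (2.53 to 38.5). The fitted log2 fold change was 3.20 (SE 0.78, edgeR adjusted p = 0.00490). That was the highest of the 25 plastid genes tested, with an error wide enough to include ndhI. Since ndhE entered the test only through its hybrid counts, its call and its rank are given as a description.

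The ndhG gene had 75 and 146 counts in the hybrid (107 and 143 CPM in RPI11 and RPI10) and 8 and 16 counts in B73 (15.6 and 44.5 CPM). The groups were apart on both scales. The log2 fold change was 2.11 (SE 0.49, edgeR adjusted p = 0.00378), with a ratio of 6.82 within RPI11 (95% counting interval 3.29 to 16.4) and 3.21 within RPI10 (1.91 to 5.76). Without the RPI11 library of B73 the call was lost (edgeR adjusted p = 0.107).

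The third membrane gene, ndhF, also passed the test, with a smaller difference. It had 358 and 960 counts in the hybrid (509.7 and 939 CPM in RPI11 and RPI10) and 126 and 114 counts in B73 (246 and 317 CPM). The log2 fold change was 1.37 (SE 0.42, edgeR adjusted p = 0.0167), 2.07-fold within RPI11 and 2.96-fold within RPI10. Per library total the groups overlapped, with 405 and 715 CPM in the hybrid and 312 and 414 CPM in B73, and ndhF then had a log2 fold change of 0.63 (edgeR adjusted p = 0.200). The call was also lost without the RPI10 library of B73 (edgeR adjusted p = 0.0669), without the RPI11 library of B73 (0.216) and when the hybrid lacked its RPI10 library (0.0526).

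On the TMM scale both hybrid libraries were above both B73 libraries for 5 of the 5 NDH genes, where 36.1% of all IDs tested did so. Per library total this held for 3 of 5 (ndhE, ndhG and ndhI), where 23.8% of all IDs did so. For ndhE the separation was fixed in advance on both scales, since it passed the filter only through its hybrid counts. Its place in these numbers is therefore a description. The scaling also set the balance of the whole comparison, which had 829 IDs higher and 833 lower in the hybrid with TMM, and 482 higher and 1357 lower with library totals. In both scalings ndhG and ndhI passed the test and were higher in the hybrid. When each library was thinned at random to 275271 counts, ndhI kept 133 and 131 counts in the hybrid (RPI11 and RPI10) against 21 and 51 in B73, and it alone of the 4 NDH genes then tested passed (edgeR adjusted p = 0.0461). The same thinning left ndhH with 47 and 55 counts in the hybrid against 28 and 69 in B73.

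**Figure D2:**
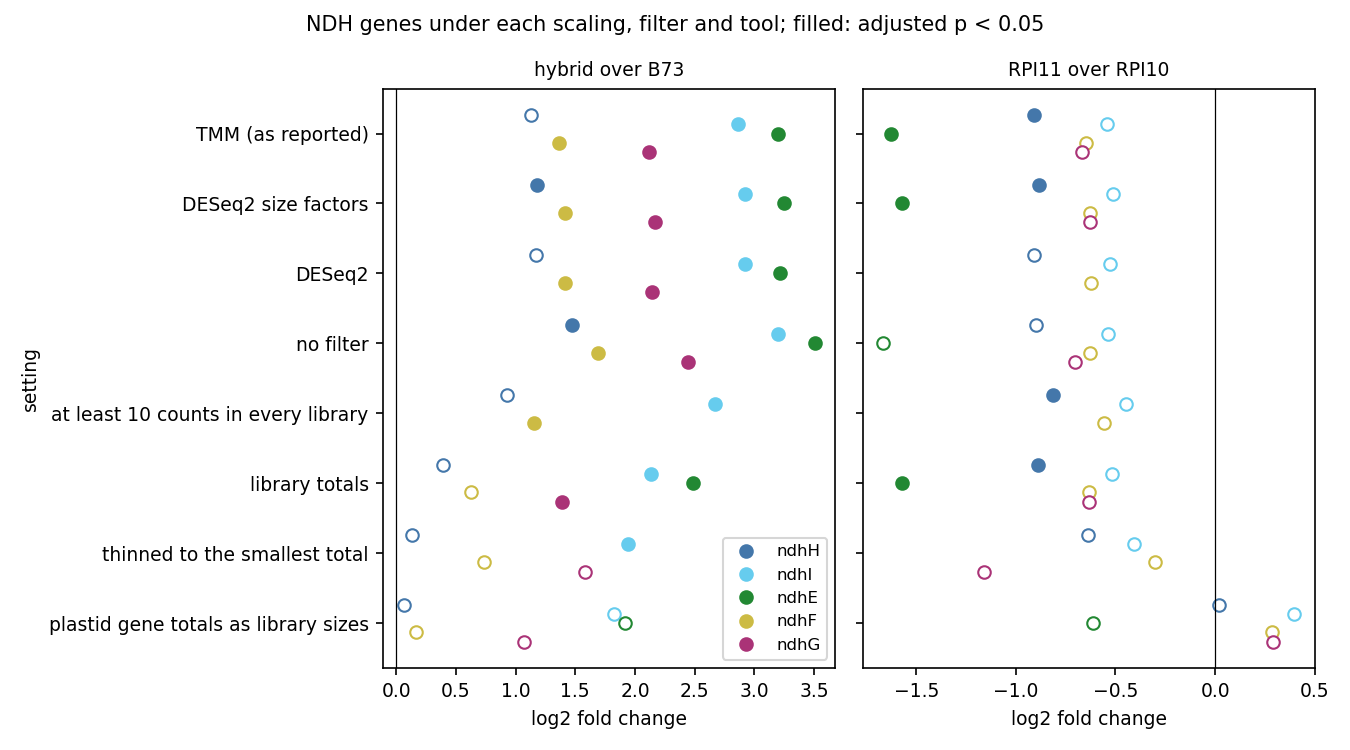
Log2 fold changes of the NDH genes for the hybrid over B73 (left) and RPI11 over RPI10 with genotype as a term (right), under the reported TMM fit and 7 other settings (rows). Filled points passed an adjusted p of 0.05; between genotypes all points lie above 0, with ndhE, ndhI and ndhG to the right of ndhF and ndhH wherever they were tested. Between codes 4 of the 5 genes change side when plastid gene totals, which include cemA, are used as library sizes.

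Ratios of NDH genes within a library do not depend on any library scaling. The number of ndhI counts per ndhH count was 3.08 (RPI11) and 2.40 (RPI10) in the hybrid and 0.929 and 0.739 in B73. This ratio was 3.32 times higher in the hybrid in RPI11 and 3.25 times higher in RPI10. The B73 ratios rest on 39 and 51 counts of ndhI and on 42 and 69 of ndhH, and no interval was computed for them. Per ndhF count, ndhI stood at 1.37 and 0.938 in the hybrid and 0.310 and 0.447 in B73, again without overlap. That ratio was 4.42 times higher in the hybrid in RPI11 and 2.10 times higher in RPI10, so its size differed between the codes. For ndhE over ndhF the values were 0.0419 and 0.0688 in the hybrid and 0.00794 and 0.0263 in B73. In contrast, ndhH per ndhF count was 0.444 and 0.391 in the hybrid and 0.333 and 0.605 in B73, and the groups overlapped. These differences between members were not tested beyond their overlap.

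The make-up of the NDH counts differed accordingly. The gene ndhI gave 44.7% (RPI11; 95% Wilson interval 41.7 to 47.6) and 36.8% (RPI10; 34.9 to 38.7) of the NDH counts in the hybrid, against 18.1% (13.5 to 23.7) and 20.2% (15.7 to 25.5) in B73. The share of ndhF was 35.9% ± 4.66 in the hybrid and 51.7% ± 9.39 in B73 (SD, n = 2 each). The share of ndhH was 14.9% ± 0.587 in the hybrid and 23.4% ± 5.54 in B73. The groups did not overlap for ndhI, ndhF, ndhH and ndhE, and they overlapped for ndhG, at 6.40% ± 0.615 in the hybrid and 5.01% ± 1.85 in B73. For ndhE the B73 shares rest on 1 and 3 counts. Its 95% Wilson intervals overlapped, from 0.83 to 2.24% in the RPI11 hybrid library and from 0.40 to 3.43% in the RPI10 library of B73. Its separation is given as a description. The shares of a library are parts of the same sum, so a higher share of ndhI lowers the others. The separations of ndhF and ndhH are thus not separate results, and ndhH per ndhF count overlapped between the groups.

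**Figure D3:**
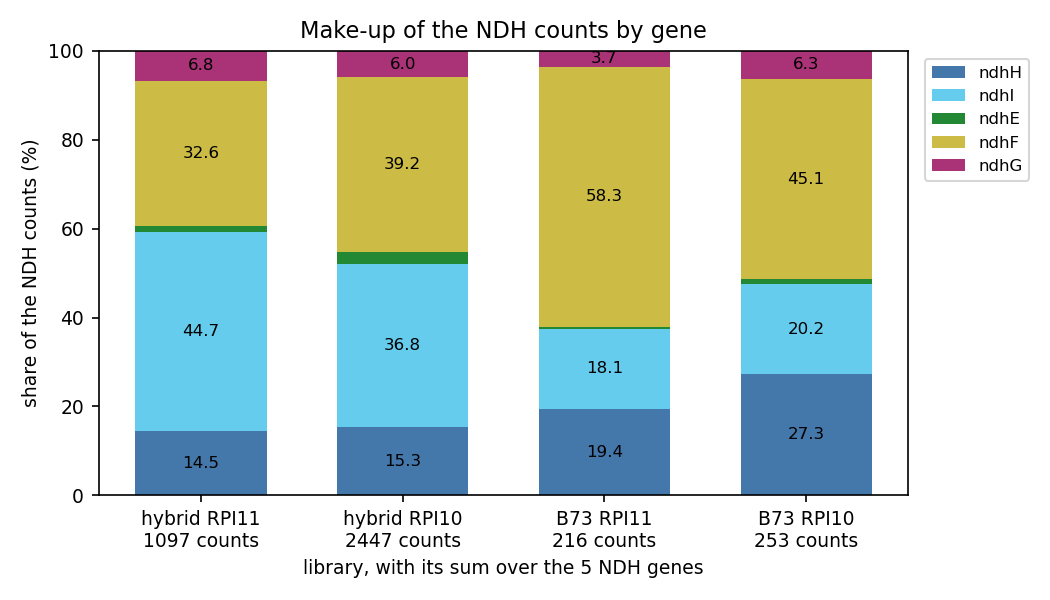
Share of each NDH gene in the summed NDH counts of a library, in percent, with the sums under the bars. The ndhI segment takes 44.7% and 36.8% of the counts in the hybrid bars and 18.1% and 20.2% in the B73 bars.

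The NDH genes were then set beside 20 other plastid genes of lists that were drawn up from textbook functions. By the edgeR test 12 of these 20 were higher in the hybrid, where 25.3% of all IDs tested were. The number was 8 with library totals, 3 after thinning, 4 without the RPI11 library of B73 and 0 with plastid totals as library sizes, where 2 had an unadjusted p under 0.05. By edgeR 0 were lower, also at an unadjusted p under 0.05 and with DESeq2, where 25.4% of all IDs tested were called lower. They had a median log2 fold change of 1.54, against 2.11 for the 5 NDH genes and -0.04 for all IDs tested. The NDH median includes ndhE (3.20), which passed the filter only through its hybrid counts. The other NDH values were 1.13 (ndhH), 1.37 (ndhF), 2.11 (ndhG) and 2.87 (ndhI). Of the NDH genes 0 were lower by edgeR, at an unadjusted p under 0.05 or with DESeq2. By function, 6 of 7 genes of plastid translation rose, from infA (3.16, SE 0.57, edgeR adjusted p = 0.000840), a translation initiation factor, downwards, and rps16 did not pass (0.70). Of 4 photosystem II genes, psbC (2.15) and psbH (1.58) rose and psbA (0.73) and psbB (-0.05) did not pass. The difference between the NDH genes and the other plastid genes was not tested.

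The direct neighbour psaC, which encodes the iron-sulphur subunit of photosystem I that passes electrons to ferredoxin, did not pass the test between genotypes. It had 425 and 1450 counts in the hybrid (605 and 1419 CPM in RPI11 and RPI10) and 320 and 454 counts in B73 (626 and 1264 CPM), with a log2 fold change of 0.10 (SE 0.48, edgeR adjusted p = 0.875). Counted per psaC count, each NDH gene was higher in both hybrid libraries than in both B73 libraries. For ndhE, which comes next to psaC, the ratio was 11.3 times higher in RPI11 and 6.89 times higher in RPI10, and for ndhF it was 2.14 and 2.64 times higher. Among the plastid genes tested only psbB (-0.05) had a lower log2 fold change than psaC. A rise per psaC count is thus not particular to the NDH genes. The share of all IDs separated in this way per psaC count was not computed. On the TMM scale, another measure, 36.1% of all IDs tested were separated, and ndhE had entered the test only through its hybrid counts. Of the other lists around ferredoxin, FDX2, a nuclear ferredoxin gene, was higher in the hybrid at 213 ± 39.4 CPM against 29.6 ± 2.45 CPM in B73 (log2 fold change 2.84, SE 0.42, edgeR adjusted p = 0.000309), and FDX3 was too low to test.

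Together the 5 NDH genes took 2.77% (RPI11) and 2.05% (RPI10) of the counts of all 25 plastid genes in the hybrid, against 1.49% and 1.44% in B73. The gene cemA alone, for a protein of the plastid envelope, took 18.3% and 37.6% of those counts in the hybrid and 20.02% and 48.1% in B73. Without cemA the NDH share was 3.40% and 3.29% in the hybrid and 1.87% and 2.78% in B73, and the groups still did not overlap. Of the NDH counts, ndhI alone gave 44.7% and 36.8% in the hybrid and 18.1% and 20.2% in B73. The NDH shares without ndhI were not computed, so these separations are of the sum and not of each gene. Scaled to the plastid totals instead of whole libraries, 0 of the 5 NDH genes passed the edgeR test between genotypes, with ndhI nearest at a log2 fold change of 1.83 (edgeR adjusted p = 0.0818); in that fit 1 of the 5, ndhI, had an unadjusted p under 0.05.

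**Figure D4:**
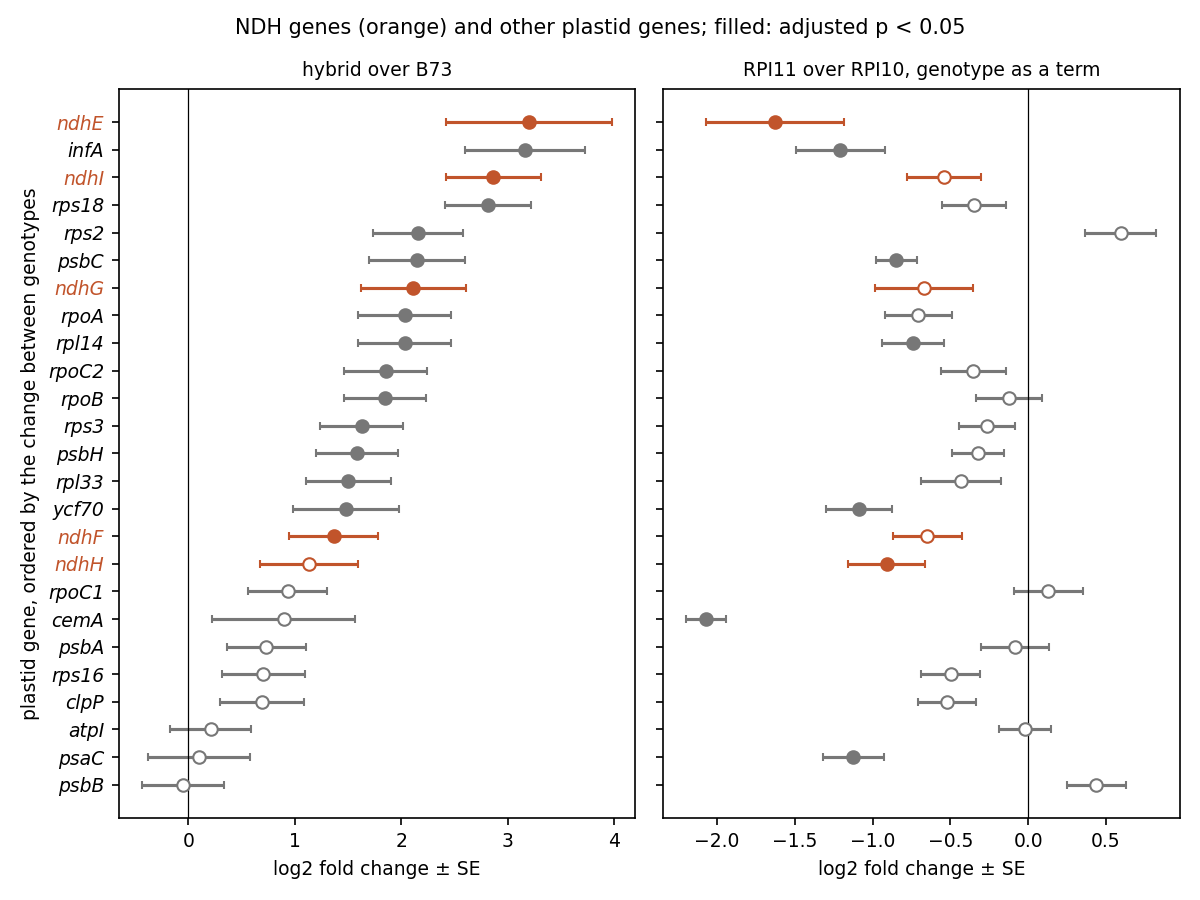
Log2 fold changes with standard errors of the 25 plastid genes tested, for the hybrid over B73 (left) and RPI11 over RPI10 with genotype as a term (right); filled points passed an adjusted p of 0.05. The NDH genes (orange) run from 1.13 to 3.20 on the left, where psaC stands at 0.10, and all 5 lie below 0 on the right, as does psaC at -1.12.

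Between the codes, with genotype as a term in the model, ndhE and ndhH were lower in RPI11 than in RPI10, where 2.13% of all IDs tested were called lower. For ndhH the level in RPI11 was 226 CPM in the hybrid and 82.1 CPM in B73, against 367 and 192 CPM in RPI10. Its log2 fold change was -0.91 (SE 0.25, edgeR adjusted p = 0.0425). For ndhE the counts in RPI11 were 15 and 1 in the hybrid and B73, against 66 and 3 in RPI10, with a log2 fold change of -1.63 (SE 0.44, edgeR adjusted p = 0.0434). The call on ndhE rests on the hybrid, since the B73 ratio of 0.234 had a 95% counting interval from 0.00446 to 2.92. Both calls were near the threshold and were lost without a filter on low counts (edgeR adjusted p = 0.182 for ndhH and 0.147 for ndhE) and without the genotype term (edgeR adjusted p = 1 for each).

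The other 3 NDH genes did not pass, with log2 fold changes of -0.65 for ndhF (SE 0.22, edgeR adjusted p = 0.133), -0.67 for ndhG (SE 0.32, adjusted p = 0.338) and -0.54 for ndhI (SE 0.24, adjusted p = 0.287). On the TMM scale RPI11 was below RPI10 in both genotypes for each of the 5, where 29.3% of all IDs tested did so. In RPI11 ndhF was at 0.543 of its RPI10 level in the hybrid (95% counting interval 0.479 to 0.613) and at 0.777 in B73 (0.598 to 1.0097). For ndhG the values were 0.747 in the hybrid (0.558 to 0.994) and 0.351 in B73 (0.130 to 0.870). The intervals of the genotypes overlapped for both genes, and the difference between genotypes was not tested.

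Of the 20 other plastid genes, 6 were lower in RPI11 (cemA, infA, psaC, ycf70, psbC and rpl14) by edgeR, where 2.13% of all IDs tested were. With TMM scaling 0 were higher by edgeR, and 0 by DESeq2, where 1.13% of all IDs tested were called higher by edgeR and 2 of the 20 were higher at an unadjusted p under 0.05. Thinning left 1 lower and a model with no genotype term 0, with 1 at an unadjusted p under 0.05, and with plastid totals as library sizes 1 was lower and 8 were higher. The median log2 fold change of the 20 was -0.39, set beside -0.67 for the NDH genes. For psaC, RPI11 had 605 CPM in the hybrid and 626 CPM in B73, against 1419 and 1264 CPM in RPI10 (log2 fold change -1.12, SE 0.20, edgeR adjusted p = 0.00129). The plastid genes of the lists took 4.48% and 3.58% of the library counts in RPI11 (hybrid and B73) and 8.88% and 6.37% in RPI10. When plastid totals were used as library sizes the log2 fold changes turned positive for ndhF, ndhG, ndhH and ndhI, and ndhE had -0.61 (edgeR adjusted p = 0.270). These totals include cemA, itself lower in RPI11 (log2 fold change -2.07). Without cemA the NDH share of plastid counts was 3.40% in RPI11 and 3.29% in RPI10 in the hybrid. In B73 it was 1.87% in RPI11 and 2.78% in RPI10. A fit scaled to plastid totals without cemA was not run. Each code has 1 library per genotype, so an effect of a library and of the seedlings in it cannot be told apart.

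The IDs whose profile over the 4 libraries lay nearest to the mean NDH profile were Zm00001d012998, PHI1, Zm00001d024633, Zm00001d015085 and rpoA. Nearness was the Euclidean distance of centred log2(CPM + 1) values, and it ran from 0.130 to 0.219 among 3282 IDs and 4 libraries. Zm00001d012998 had 122 and 279 counts in the hybrid (RPI11 and RPI10) and 16 and 26 counts in B73. The plastid gene rpoA, for the alpha subunit of the plastid-encoded RNA polymerase, had 535 and 1143 counts in the hybrid and 82 and 108 counts in B73. The NDH genes themselves lay from 0.359 (ndhG) to 1.03 (ndhE) from their mean. The 5 IDs were nearer to it than any single NDH gene, but they were picked as the nearest among 3282 IDs. The reason for the difference in distance was not tested. PHI1 (2 and 4 counts in RPI11 and RPI10), Zm00001d024633 (2 and 3) and Zm00001d015085 (5 and 7) had few counts in B73.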

How the data were processed

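Per the labels, libraries were made by a modified CEL-Seq2 protocol in which read 1 carried a 10 bp UMI and a 6 bp barcode. The authors deposited raw counts per gene or locus ID, 1 column per library. The submitters' processing notes name CASAVA 1.4, HISAT2, UMI-tools and the build B73 RefGen_v4. The counting tool, annotation and treatment of reads with several matches are not given in the sources used here, so plastid genes with copies in the nuclear genome are uncertain. Since the RefSeq table is of another assembly, no coordinates are given.

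Counts were tested in edgeR 4.0.16 (R 4.3.3) with filterByExpr (minimum count 10), TMM scaling and the quasi-likelihood test on all 4 libraries. The term was genotype, or code with genotype as a further term. P-values were adjusted by Benjamini-Hochberg over the 3282 IDs tested, with a threshold of 0.05. All 5 NDH genes passed the filter, ndhE only through its hybrid counts. Standard errors are the absolute log2 fold change over the square root of F. The fits were also run on simulated counts with known changes. Those counts had a lower dispersion than the genotype fit without a block found here (0.0699). They therefore do not show how often genotype calls at this spread are right. Alternatives were other scalings and filters, thinned counts, DESeq2 1.42.0, the code as a block, and leaving out each library. The NDH genes, the plastid lists and the rule for named IDs (the NDH genes, their neighbours, the extremes of each list and the 5 nearest profiles) were chosen with earlier results of these data known; examples within lists and within-library ratios were chosen after their values were seen. Nothing in the labels says that libraries came from separate plants. Libraries of a genotype differed by more than counting noise (chi-square over its degrees of freedom was 11.5 in the hybrid and 5.43 in B73), which separate preparations of 1 pool would also show. Each was counted as a sample because the labels list it as one, and p-values measure only the spread between these libraries, which may be technical. Intervals cover counting error only.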

Additional observations from a re-analysis of the deposited data

Results flagged for a closer look

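Some within-library ratios moved in opposite directions in the genotypes or in the codes, and none of these differences was tested. Between codes (RPI11 over RPI10), ndhI per ndhF was 1.46 times higher in the hybrid and stood at 0.692 times in B73. For ndhG per ndhF the same values were 1.38 in the hybrid and 0.452 in B73, and for ndhH per ndhF they were 1.14 and 0.551. For ndhG per ndhH they were 1.21 in the hybrid and 0.821 in B73. Per psaC count, ndhG stood at 1.75 in the hybrid and 0.709 in B73, and ndhH at 1.45 and 0.864. Between genotypes, ndhH per ndhF was 1.33 times higher in the hybrid in RPI11 and stood at 0.645 times in RPI10. The B73 counts behind these ratios include 8 and 16 for ndhG and 42 and 69 for ndhH, so counting error is large.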

How the results depend on the processing

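Between genotypes no fitted log2 fold change of an NDH gene turned negative, but with plastid totals as library sizes ndhH (0.064) and ndhF (0.17) and after thinning ndhH (0.14) were near 0 (edgeR adjusted p from 0.862 to 0.960). The numbers that follow include ndhE wherever it was tested and passed, as a description, since it entered only through its hybrid counts. The number of NDH genes called higher was 4 as reported, 0 with plastid totals, 1 after thinning, and 2 with at least 10 counts in every library, where only 3 were tested. Leaving out a library gave 2 to 5 such genes: 2 without the RPI10 library of the hybrid or the RPI11 library of B73, 4 without the RPI10 library of B73, with ndhH in place of ndhF, and 5 without the RPI11 library of the hybrid. The lone library was taken to vary like the other group. Over all IDs, 829 higher became 482 with library totals, 78 with plastid totals, 1353 with no filter, 220 with 10 counts in every library, 133 after thinning and 529 to 822 without a library. The 833 lower became 1357 with library totals, 181 with 10 counts in every library, 233 after thinning, 354 with DESeq2 and 313 to 496 without a library. The NDH share of library counts, 2.11 times higher in the hybrid, was 3.51 times higher on the TMM scale and 1.67 to 2.87 times without a library; its share of plastid counts, 1.64 times higher, ran from 1.398 to 1.89. With the code as a replicate block all 5 NDH genes were called higher, ndhH included (log2 fold change 1.18, edgeR adjusted p = 0.000435), with 970 IDs higher and 900 lower in all. The common dispersion was 0.0230 with the block and 0.0699 without it. Same-coded libraries deviated with a correlation of 0.248, and nothing in the labels pairs them.

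Between codes, the 2 NDH genes called lower became 1 with 10 counts in every library and 0 with plastid totals, no filter, thinning, DESeq2 (which gave ndhE and ndhG no adjusted p) or no genotype term. With plastid totals, which include cemA, ndhF (0.28), ndhG (0.29), ndhH (0.021) and ndhI (0.40) reversed. Over all IDs, 37 higher became 65 with DESeq2 size factors, 63 with library totals, 1315 with plastid totals, 23 with no filter or with DESeq2, 56 with 10 counts in every library, and 0 after thinning or with no genotype term. The 70 lower became 18 with plastid totals, 1 after thinning, 39 with DESeq2 and 0 with no genotype term, where 9 IDs had an unadjusted p under 0.05 (86 after thinning). Leaving out a library left no residual degrees of freedom there, so it gave values with no test. The strict filter and thinning left fewer IDs to test; the cause of the other changes was not tested. Depth limits ndhE most, with 1 and 3 counts in B73.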
